A study of Mus musculus with 8 samples.

Results

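The CPEB genes are the cytoplasmic polyadenylation element binding proteins of the mouse, Cpeb1, Cpeb2, Cpeb3 and Cpeb4. They were chosen by gene symbol and are 4 of the 24375 genes listed in either of the series' 2 tables. The study compared liver RNA of Cpeb4 knockout (Cpeb4 KO) and wild-type mice, under a title that names hepatic steatosis. Its 8 samples fall into 4 groups of 2, with each genotype sampled as total liver RNA and as RNA of the purified endoplasmic reticulum (ER). The ER was isolated with a kit from livers of mice fasted overnight, and no other treatment is named. The labels used here do not state the feeding state behind the total liver RNA, the strain, sex or age of the mice, which part of Cpeb4 was deleted, or in which cells. Whether both libraries of a group are separate mice is not stated either, so a p-value here reflects only the spread between libraries, which may be technical.

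CPEB proteins bind short U-rich words, the cytoplasmic polyadenylation elements, in the 3′ untranslated region (UTR) of mRNAs. Bound to an mRNA, they recruit factors that lengthen or shorten its poly(A) tail and so raise or lower its translation. Cpeb1 is known from oocyte maturation and from control of mRNA at synapses. Cpeb2, Cpeb3 and Cpeb4 form a closely related subfamily with nearly alike RNA-binding domains. In liver, CPEB4 is known as a regulator of the translation of mRNAs that act in ER stress.

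Cpeb1 (ENSMUSG00000025586) lies on the minus strand at chr7:81347026-81455465 and Cpeb2 (ENSMUSG00000039782) on the plus strand at chr5:43233170-43289724. Cpeb3 (ENSMUSG00000039652) lies on the minus strand at chr19:37021291-37208601 and Cpeb4 (ENSMUSG00000020300) on the plus strand at chr11:31872211-31935634. Coordinates are on GRCm38, from the GENCODE M21 annotation. The 4 protein-coding genes share no 31-base word of exon sequence with each other. A read of that length that matches exactly can therefore be placed among the 4 paralogs.

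The transcripts of the CPEB genes themselves hold the words that CPEB proteins bind. The words TTTTAT and TTTTAAT (U in place of T in the RNA) were counted on the transcript strand of each gene's longest annotated 3′ UTR, overlaps included. For each gene the following 30 bases, all in that UTR, are shown. They hold the word nearest to a following AATAAA, the letters of a polyadenylation signal, wherever in the UTR that AATAAA lies. Capitals mark the word, and each window reads 5′ to 3′ along the transcript.
Cpeb1 (chr7:81347256-81347285, minus strand): ttgacttttctTTTTAATttaacgattact
Cpeb2 (chr5:43289459-43289488, plus strand): gttaaagccgttTTTTATttttttctaaat
Cpeb3 (chr19:37021629-37021658, minus strand): acatatttttcaTTTTATttcgtattttct
Cpeb4 (chr11:31933745-31933774, plus strand): tatacttcattTTTTAATataaataatttt
Counted from start to start, the word lies 15 bases before that AATAAA in Cpeb2 and 19 bases before it in Cpeb4, against 113 in Cpeb3 and 229 in Cpeb1. From the word to the end of the UTR there are 254 bases in Cpeb2, 1879 in Cpeb4, 356 in Cpeb3 and 249 in Cpeb1. Whether any of these AATAAA is used as a signal was not tested. More words and more AATAAA make a short gap more likely. Cpeb2 and Cpeb4 held 6 AATAAA each, against 4 in Cpeb3 and 1 in Cpeb1.

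The Cpeb2 UTR of 3778 bases held 24 words, 20 of them TTTTAT and 4 TTTTAAT. Of 2178 genes with a 3′ UTR within 25% of that length, 99.9% had fewer. The Cpeb4 UTR of 4102 bases held 17 words, 11 TTTTAT and 6 TTTTAAT, and 99.5% of 1934 genes of like length had fewer. Cpeb2 and Cpeb4 thus stood at the dense end for their length. The Cpeb3 UTR of 3569 bases held 6 words, all TTTTAT, more than 64.6% of 2392 genes of like length. The Cpeb1 UTR of 1315 bases held 4 words, 2 of each kind, more than 85.8% of 3531 genes of like length. Among all 21037 genes with an annotated 3′ UTR, 56.6% held at least 1 such word, and among genes of the length of Cpeb2, 93.2% did. A match describes these letters and is not a measured binding site.

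**Figure D1:**
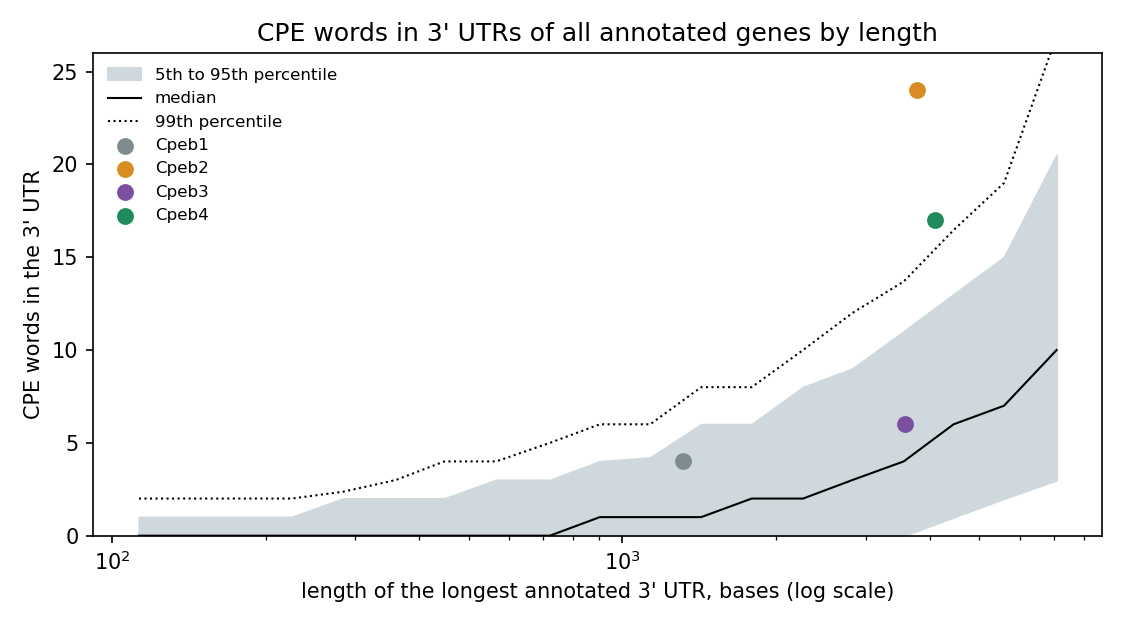
Number of TTTTAT and TTTTAAT words in the longest annotated 3′ UTR of a gene (vertical axis) against the length of that UTR in bases (horizontal axis, log scale), with the 4 CPEB genes as points and the median, a band of central percentiles and an upper percentile line of all genes by length. Cpeb2 with 24 words and Cpeb4 with 17 lie above the upper line, and Cpeb3 with 6 and Cpeb1 with 4 lie within the band.

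The deposited data are 2 tables of the authors' own genotype comparison, here the larger table (23634 genes, 14180 with an adjusted p) and the smaller table (21201 genes, 11661 with an adjusted p). Neither names its RNA preparation, and neither is assigned to total liver or ER here. Each mean in them is an average over 4 libraries of reads divided by a size factor, which scales for depth, and it is printed with enough digits that the whole reads of each library can be solved for. Relative depth per library was 0.717 to 1.26 in the larger table, and 0.839 to 1.64 in the smaller one. The libraries of a genotype are numbered by depth, the deeper first, and are not matched to the labelled samples. The genotype with the lower Cpeb4 reads was read as the knockout, so the direction of Cpeb4 is no check of the labels, and every other direction rests on that reading. All 6 hepatocyte markers were listed in both tables, with log2 fold changes of -0.19 to 0.21 in the larger and -0.24 to 0.43 in the smaller. Of these and the markers of 8 other cell types, no gene passed the authors' test in either table. Kupffer cell markers were at -0.12 to 0.05 in the larger and -0.18 to -0.04 in the smaller table. The 5 stellate cell markers listed were at -0.17 to -0.01 and -0.24 to 0.02. The 4 of 5 erythroid markers in the tables, globin genes of red cells, had deposited log2 fold changes of -0.30 to -0.29 in the larger table and -0.42 to -0.36 in the smaller, and their part in the results was not tested. In bulk RNA, fewer cells of a type and less RNA per cell cannot be told apart.

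Cpeb4 reads were low in the knockout libraries and Cpeb2 reads were high in them, in both tables. Cpeb3 was higher in every knockout library than in every wild-type library without passing the authors' test, and Cpeb1 was alike in the genotypes within the spread of its libraries.

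In the larger table, Cpeb4 had 625 and 524 reads in the knockout libraries and 1900 and 1189 in the wild-type libraries. Divided by size factors these were 506 and 579.9 against 1511 and 1657 normalised reads. The smaller table gave 318 and 189 reads in the knockout and 599 and 532 in the wild type, or 193 and 225 against 689 and 634 normalised. The genotypes did not overlap in either table. The knockout kept 34.3% of the wild-type mean in the larger and 31.6% in the smaller table. These reads fall anywhere in the gene, so they do not measure intact Cpeb4 mRNA.

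Cpeb4 fell by 1.16 ± 0.11 (SE) on the log2 scale in the authors' deposited larger table (DESeq2 Wald test, adjusted p = 3.18e-24). In the authors' deposited smaller table it fell by 1.10 ± 0.13 (DESeq2 Wald test, adjusted p = 2.30e-12). It had the lowest p of each table. The deposited fold changes are drawn toward 0 by the fit, and the log2 ratio of the mean normalised reads was -1.54 in the larger and -1.66 in the smaller table.

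Cpeb2, a translational regulator of the same subfamily as Cpeb4, had 2088 and 1580 reads in the knockout and 1242 and 880 in the wild type of the larger table. Normalised, these were 1689 and 1749 against 987 and 1227. The mean of Cpeb2 there had 3 whole-number solutions, and 1 of them had the deposited direction. In the smaller table Cpeb2 had 1437 and 1019 reads in the knockout and 511 and 385 in the wild type, or 874 and 1215 against 588 and 459 normalised. The lowest knockout library was above the highest wild-type library in both tables. In the larger table this rests on the solution that was kept for its direction. So do all Cpeb2 values per library of that table below, with the ratios, gaps, sums and shares drawn from them. A knockout mean above the wild-type mean was there set by the deposited direction and is no separate result.

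The mean of Cpeb2 in the knockout was 155% of the wild type in the larger table, 1719 ± 41.8 against 1107 ± 169 normalised reads (SD, n = 2). In the smaller table it was 199.5%, 1044 ± 241 against 523 ± 90.9 normalised reads (SD, n = 2). Cpeb2 rose by 0.48 ± 0.11 (SE) in log2 in the authors' deposited larger table, with an adjusted p of 0.00305 (DESeq2 Wald test) and rank 26 by p. In the authors' deposited smaller table it rose by 0.65 ± 0.13, with an adjusted p of 0.00139 (DESeq2 Wald test) and rank 13. The libraries within a genotype were far apart for Cpeb2 in all but the knockout of the larger table. The gap between the wild-type libraries was 0.31 in log2 in the larger and 0.36 in the smaller table. That was wider than for 92.6% and 92.5% of genes with recovered reads and a mean of 200 to 1500. Between the knockout libraries the gap was 0.05 in the larger table, at percentile 21.5, and 0.47 in the smaller one, at percentile 93.0.

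Cpeb3, a CPEB known from synaptic and memory work, had 499 and 432 reads in the knockout and 473 and 273 in the wild type of the larger table, or 404 and 478 against 376 and 381 normalised. Reads in the smaller table were 407 and 238 against 152 and 147, or 247 and 284 against 175 and 175 normalised. The genotypes did not overlap in either table. The knockout mean was 117% of the wild type in the larger and 152% in the smaller table.

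Neither difference of Cpeb3 passed the test over all genes. The log2 fold change in the authors' deposited larger table was 0.14 with a 95% interval of -0.09 to 0.37 (adjusted p = 1.000, DESeq2 Wald test). In the authors' deposited smaller table it was 0.34 with an interval of 0.06 to 0.61, an unadjusted p of 0.0161 and an adjusted p of 0.786 (DESeq2 Wald test). Without the second knockout library the log2 ratio of mean reads in the larger table was 0.094, and without the first it was 0.34.

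Cpeb1, the founding member of the family, had 853 and 658 reads in the knockout and 814 and 565 in the wild type of the larger table. The normalised values were 690.2 and 728 against 647 and 788. The smaller table gave 1499 and 791 reads against 843 and 730, or 911 and 943 against 969 and 870.4 normalised. Both knockout libraries lay between the wild-type libraries in each table. The log2 fold change in the authors' deposited larger table was -0.01, with a 95% interval of -0.23 to 0.21. In the authors' deposited smaller table it was 0.01, with an interval of -0.23 to 0.25.

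**Figure D2:**
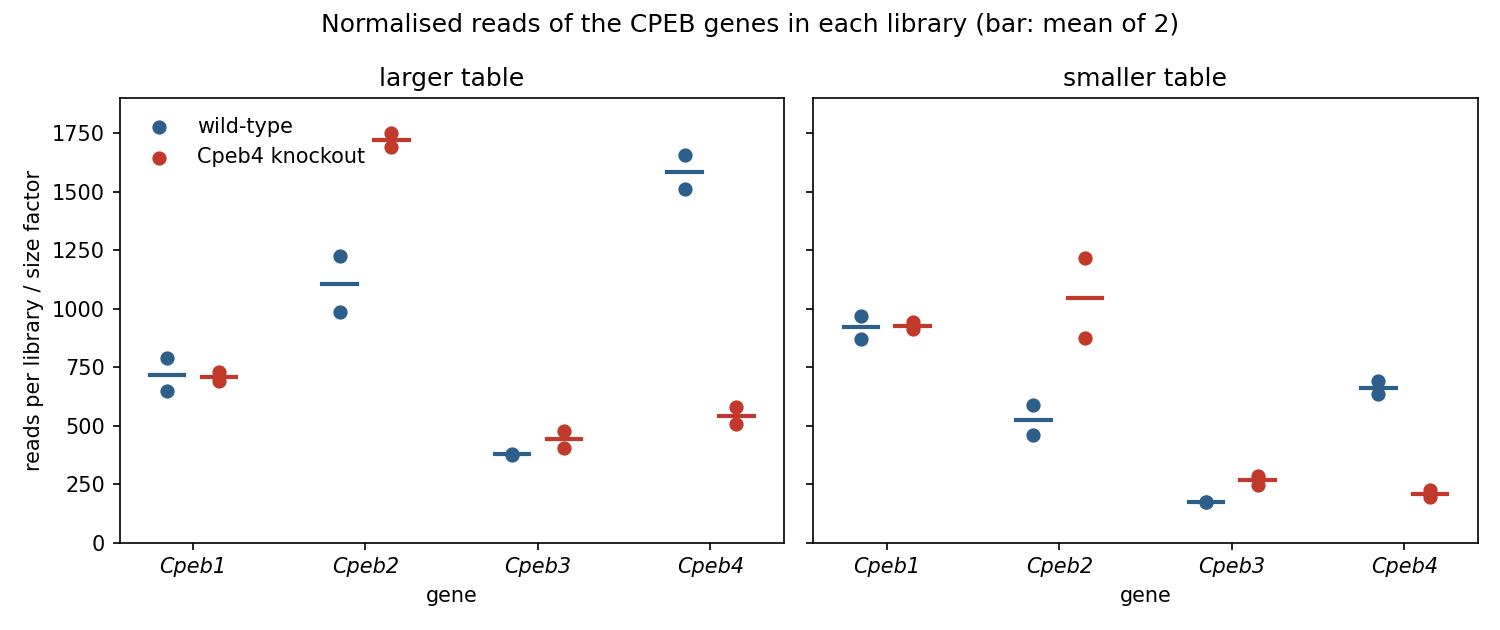
Normalised reads (reads divided by the library's size factor, vertical axis) of each CPEB gene in the 4 libraries of each table, 1 point per library and a bar at each mean. Cpeb4 points are lower and Cpeb2 and Cpeb3 points higher in the knockout with no overlap, while Cpeb1 points overlap.

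By the authors' adjusted p, 2 of the 4 CPEB genes passed in each table, Cpeb2 as higher and Cpeb4 as lower. Cpeb4 is the deleted gene and its low reads set the knockout side, so in the counts here it says nothing about the family. Of the other members, Cpeb2 alone passed. Over all tested genes 0.296% passed in the larger and 0.266% in the smaller table. By direction, 0.0917% and 0.163% of genes passed as higher, as Cpeb2 did, and 0.205% and 0.103% as lower, as Cpeb4 did. Non-overlap of the libraries was met by 3 of 4 members in each table. Among tested genes with recovered reads it was met by 37.1% of 10601 in the larger and 39.0% of 8742 in the smaller table. Split by direction, 17.7% and 18.7% of those genes were higher without overlap, as were 2 of 4 members, and 19.4% and 20.3% were lower, as was 1. Cpeb2 and Cpeb3 were higher without overlap in both tables, as were 7.79% of 7796 genes. For Cpeb2 in the larger table this again uses the solution kept for its direction. With 2 libraries against 2, an exact two-sided permutation test of a single gene cannot give a p below 0.333.

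The interval of the difference between 2 members shows where paralogs moved apart. The log2 fold change of Cpeb2 was above that of Cpeb1 by 0.49 (95% interval 0.19 to 0.79) in the larger table and 0.64 (0.28 to 1.00) in the smaller. Cpeb2 was above Cpeb3 by 0.34 (0.03 to 0.65) in the larger table and by 0.31 (-0.07 to 0.69) in the smaller, where the interval includes 0. Cpeb1 and Cpeb3 differed by -0.15 (-0.47 to 0.16) and -0.33 (-0.70 to 0.03). Members of a table share its libraries, and these intervals treat their errors as independent.

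No CPEB gene passed the test of a genotype difference that differs between the tables. The smaller table minus the larger was 0.17 (95% interval -0.17 to 0.50) for Cpeb2, 0.20 (-0.16 to 0.55) for Cpeb3, 0.06 (-0.27 to 0.40) for Cpeb4 and 0.02 (-0.31 to 0.34) for Cpeb1. Each adjusted p was 1.000 (z test, adjusted over 11604 genes), and 0.0172% of genes passed. These differences use the deposited fold changes, which are drawn toward 0 to an unlike degree in each table. Unmoderated log2 ratios in the larger and smaller table were 0.63 and 1.00 for Cpeb2 and 0.22 and 0.60 for Cpeb3. For Cpeb4 they were -1.54 and -1.66, a difference of the opposite sign. The SD of z over all genes was 0.54, less than the test assumes, so the test is conservative. The labels repeat the numbers 6 to 9 in the ER and total liver samples, so the tables may share mice. The z test treats them as independent, and a pattern seen in both tables may not be an independent repeat.

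**Figure D3:**
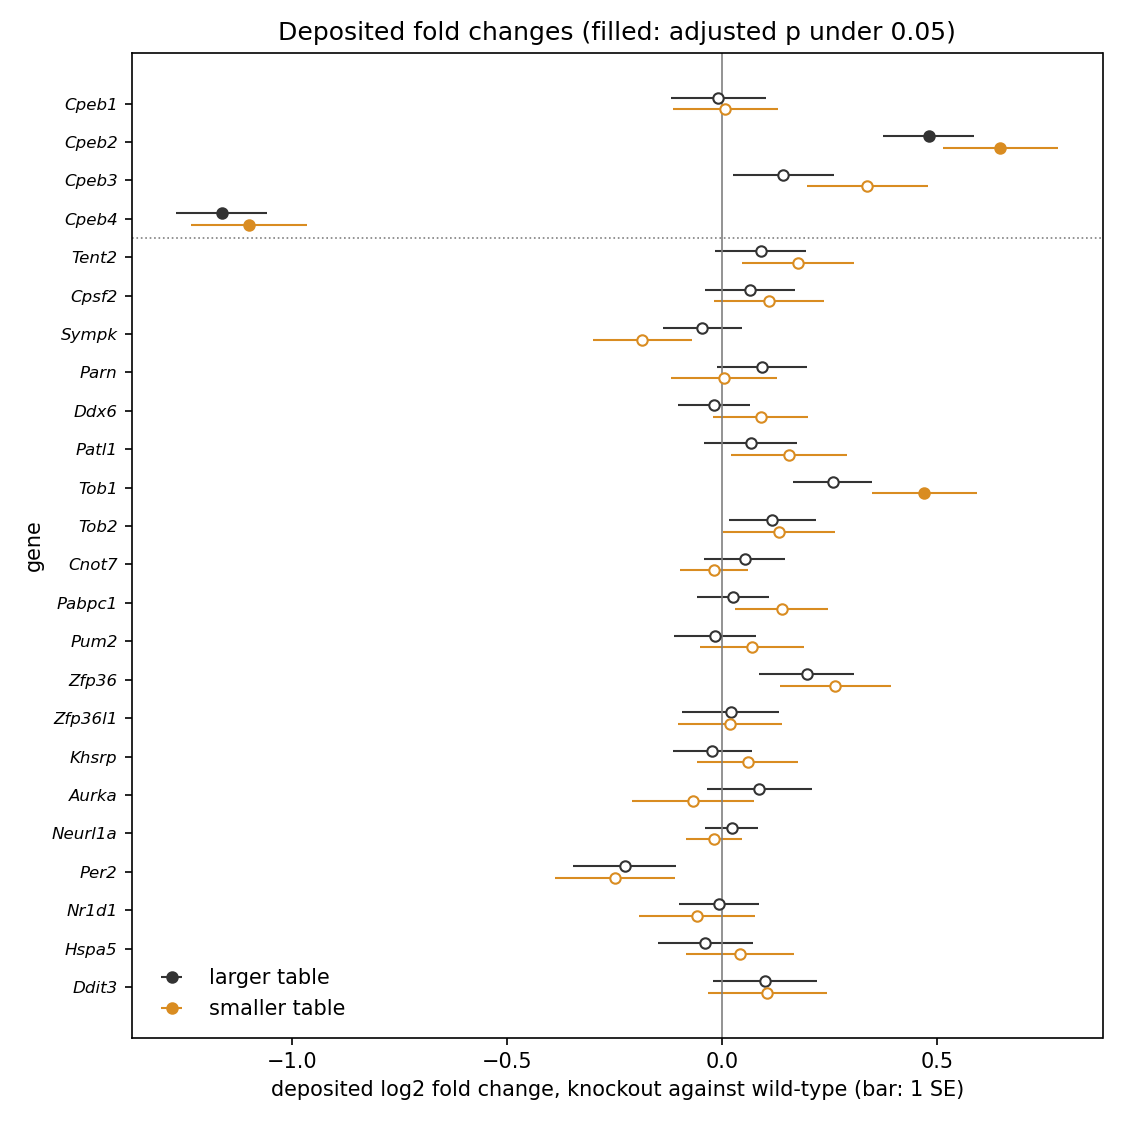
Deposited log2 fold change, knockout over wild type, horizontal axis, of the CPEB genes (top) and of the selected genes of the lists (below), with bars of 1 SE and filled points where the adjusted p is under 0.05. Cpeb2 and Cpeb4 are filled in both tables on opposite sides of 0, and of the other genes Tob1 is filled in the smaller table.

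Levels of different genes were compared per kilobase of annotated exon. In the wild type of the larger table Cpeb4 was highest, at 237 and 260.2 normalised reads per kilobase. Cpeb1 followed at 154 and 188 and Cpeb2 at 126 and 157, which overlap, and Cpeb3 was lowest at 50.7 and 51.3. In the knockout the order became Cpeb2 at 216 and 224, Cpeb1 at 165 and 174, Cpeb4 at 79.4 and 91.1, and Cpeb3 at 54.5 and 64.5. Those 4 ranges do not overlap.

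In the wild type of the smaller table Cpeb1 was highest at 231 and 208 reads per kilobase, then Cpeb4 at 108 and 99.6, Cpeb2 at 75.2 and 58.7, and Cpeb3 at 23.6 and 23.6. In the knockout Cpeb1 stayed highest at 217 and 225 and Cpeb2 was next at 112 and 155. Cpeb3 at 33.4 and 38.3 and Cpeb4 at 30.4 and 35.4 overlapped at the bottom.

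Summed per kilobase, the 4 genes came to 534 ± 27.1 in the knockout and 612 ± 62.0 in the wild type of the larger table (SD, n = 2), without overlap. The sums in the smaller table were 423 ± 43.1 and 414 ± 34.3 (SD, n = 2), which overlap. The share of Cpeb4 in the sum was 40.7% in the wild type and 15.9% in the knockout of the larger table, and 25.1% and 7.76% in the smaller. The share of Cpeb2 was 23.1% and 41.2% in the larger table, and 16.1% and 31.3% in the smaller.

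The knockout mean of Cpeb4 was lower by 163 reads per kilobase in the larger table, and that of Cpeb2 was higher by 78.3, which is 47.9% of that difference. In the smaller table Cpeb4 was lower by 71.0 and Cpeb2 higher by 66.6, or 93.8%. With Cpeb3 added, the higher reads came to 53.1% of the Cpeb4 difference in the larger and 111% in the smaller table. The shares rest on few libraries, and in the larger table on the Cpeb2 solution kept for its direction. Without the second knockout library of the smaller table, the Cpeb2 share was 60.98%, and without the first it was 129%. Across all libraries left out in turn, an alternative added after the data were seen, it ran from 36.0% to 61.6% in the larger table. These are sums of RNA reads, and the amount of each protein was not measured.

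**Figure D4:**
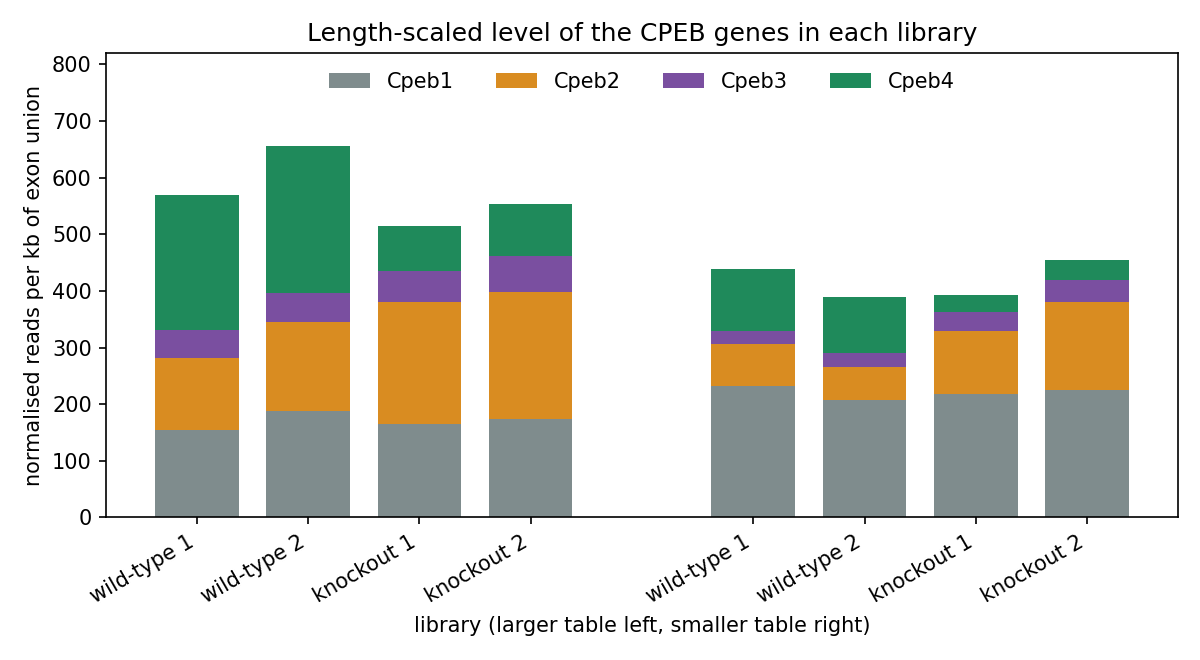
Normalised reads per kilobase of annotated exon (vertical axis) of the 4 CPEB genes, stacked for each library of each table. The Cpeb4 segment shrinks and the Cpeb2 segment grows in the knockout, with a 4-gene sum of 534 against 612 in the larger table and 423 against 414 in the smaller.

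Cpeb1 and the other 3 members also differed in their levels between the tables. The tables were normalised separately, so the ratio of a gene's mean in the smaller table to that in the larger was read against the median of all genes tested in both, -0.25 in log2 (quartiles -0.70 and 0.22). Cpeb1 was at 0.37, percentile 81.4. Cpeb2 was at -0.85, Cpeb3 at -0.89 and Cpeb4 at -1.29, percentiles 19.3, 17.9 and 9.45. In the wild-type libraries alone the values were 0.36 for Cpeb1, -1.08 for Cpeb2, -1.11 for Cpeb3 and -1.26 for Cpeb4. The median there was -0.31 over 7796 genes with recovered reads. The 3 genes of the subfamily thus had lower ratios than the median gene, and Cpeb1 a higher one, with no test made of this.

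**Figure D5:**
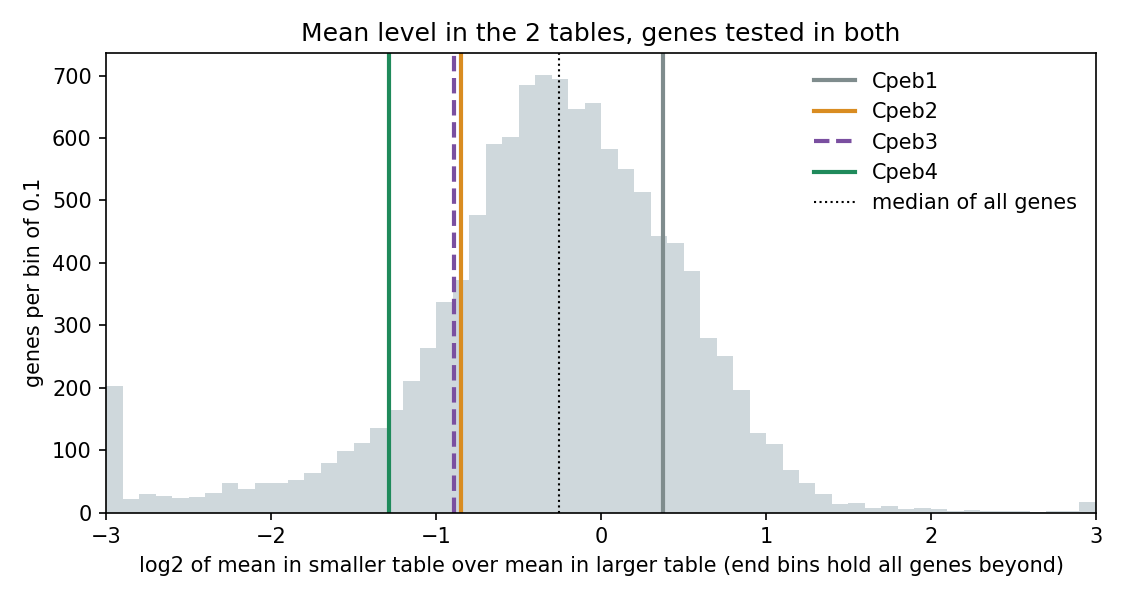
Number of genes (vertical axis) by log2 ratio of the mean in the smaller table to the mean in the larger (horizontal axis, bins of 0.1, end bins holding all genes beyond), with the CPEB genes marked. Cpeb1 lies right of the median at 0.37, and Cpeb2, Cpeb3 and Cpeb4 lie left of it between -0.85 and -1.29.

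Annotated genes overlap 3 of the 4 members, and the sources used here do not give the strand setting of the counting. Cpeb4 overlaps none. Gm7854, antisense to Cpeb2, shares 137 exon bases with it, and 1.37% of the 31-base words of Cpeb2 occur in another gene, all of them in Gm7854. In the authors' deposited tables Gm7854 was at -0.02 ± 0.12 (log2 fold change ± SE, larger) and -0.02 ± 0.13 (smaller). Its mean was 207 normalised reads in the larger and 83.9 in the smaller table, against 1413 and 784 for Cpeb2. March5, a ubiquitin ligase gene, overlaps the span of Cpeb3 on the opposite strand with no shared exon base. March5 was at -0.01 ± 0.09 and 0.06 ± 0.11 in log2 in the authors' deposited tables. A330032B11Rik, antisense to Cpeb3 with 116 shared exon bases, and Rpl7a-ps9, a pseudogene within Cpeb1, are named only. The same holds for Gm42551 and 6030400A10Rik at Cpeb2 and for Gm22714 and Gm23918 at Cpeb3.

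The genes that work with or against CPEB proteins were nearly all without a call. Across 6 lists, 85 genes were tested in the larger table and none passed the authors' adjusted p (DESeq2 Wald test), with 4 at an unadjusted p under 0.05. That is 4.71% of the listed genes, against 3.62% of all tested genes. Those 4, named after their values were seen, were Tob1, Btg3, Cirbp and Rbm3, all above 0. Btg3 is a relative of Tob1, and Cirbp and Rbm3 encode cold-inducible RNA-binding proteins. Rbm3 was at 0.33 ± 0.11 and 0.40 ± 0.12 (SE) in log2 in the authors' deposited larger and smaller tables, with adjusted p of 0.270 and 0.170 (DESeq2 Wald test). Of 82 tested in the smaller table, 1 passed as higher, and 9 had an unadjusted p under 0.05, of which 7 were above 0 and 2 below. That is 10.98%, against 4.11% of all tested genes. The median log2 fold change over the lists was 0.03 in the larger table, with 49 of 85 above 0, and 0.04 in the smaller, with 53 of 82 above 0. Of all tested genes 49.6% and 50.3% were above 0.

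The gene that passed was Tob1, an antiproliferative protein that brings CPEB3 and the CCR4-NOT deadenylase together. Tob1 in the smaller table had 1614 and 1824 normalised reads in the knockout and 1203 and 1030 in the wild type, without overlap. It rose by 0.47 ± 0.12 (SE) in log2 in the authors' deposited smaller table (DESeq2 Wald test, adjusted p = 0.0440). With p adjusted over every gene rather than those above the authors' limit on the mean, that adjusted p was 0.0750. In the authors' deposited larger table Tob1 was at 0.26 ± 0.09, with an adjusted p of 0.484 (DESeq2 Wald test). The other deadenylases and recruiters gave no call, with 10 of 17 tested genes above 0 in the larger table and 12 of 16 in the smaller, Tob1 included.

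In the cytoplasmic polyadenylation complex, the machinery that CPEB recruits, none of 16 tested genes passed in either table, and the list's median was 0.03 and 0.02. Its poly(A) polymerase Tent2 was at 0.09 ± 0.11 and 0.18 ± 0.13 in the authors' deposited larger and smaller tables. Its deadenylase Parn was at 0.09 ± 0.10 and 0.01 ± 0.12, and its scaffold Sympk at -0.05 ± 0.09 and -0.19 ± 0.11, in the authors' deposited tables. None of 6 poly(A)-binding proteins and their regulators passed in either table, among them Pabpc1 at 0.03 ± 0.08 and 0.14 ± 0.11 in the authors' deposited tables.

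Other 3′ UTR binding proteins had medians of 0.09 over 14 tested genes and 0.12 over 13, with 9 and 11 above 0 and none past the test. The mRNA-destabilising Zfp36 was at 0.20 ± 0.11 and 0.26 ± 0.13 in the authors' deposited tables, and the repressor Pum2 at -0.02 ± 0.10 and 0.07 ± 0.12. Kinases and modifiers that act on CPEB proteins gave no call among 15 tested genes in each table. Of these, the mitotic kinase gene Aurka was at 0.09 ± 0.12 and -0.07 ± 0.14 in the authors' deposited tables. Clock and unfolded protein response regulators gave none among 17 and 16, with medians of -0.03 in both. There the ER chaperone Hspa5 was at -0.04 ± 0.11 and 0.04 ± 0.13 and the clock repressor Per2 at -0.23 ± 0.12 and -0.25 ± 0.14 in the authors' deposited tables. Further genes of the fixed selection were Cpsf2, Ddx6, Patl1, Tob2, Cnot7, Zfp36l1, Khsrp, Neurl1a, Nr1d1 and Ddit3. Their log2 fold changes lay between -0.06 and 0.16 in the authors' deposited tables, and none of those tested passed. Neurl1a in both tables (means 10.3 and 7.81) and Cnot7 in the smaller (mean 11.4) had no adjusted p.

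Genes of like pattern were sought over 3 values: the log2 fold change in each table and the centred log2 ratio of the means between tables. Nearest to Cpeb2 were Rnf144a at a distance of 0.26, Setd7 at 0.31 and Trp53inp1 at 0.31, and no gene lay within 0.2. Nearest to Cpeb4 were Cd36 at 0.88, Klhdc7a at 1.05 and Scd1 at 1.06. Nearest to Cpeb3 were Ccnd1, Tpst1 and Cldn1 at 0.076, 0.084 and 0.085, with 72 genes within 0.2. Cpeb1, nearest to Atg10, Gdi2 and Gm43449, had 1252 genes within 0.2. Cpeb2 and Cpeb4 thus had no gene within 0.2, and Cpeb1 had many. The fold changes are among the 3 values, so a gene with large ones has few neighbours by construction.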

How the data were processed

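RNA from 8 liver samples was sequenced. The build mm10 and the tools STAR (2.3.0e) and DESeq2 (1.6.3) are listed with no role, per the submitters' processing notes. The sources used here give no annotation, counting tool or strand setting. The authors' columns, per the file headers, are a mean signal (reads over size factors, averaged over libraries), log2 fold change and its error, Wald score, p-value and adjusted p-value.

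Whole reads per library were solved from the 15 significant digits of each mean, with size factors taken from genes holding 1 read. For genes with a mean up to 1500, reads were recovered for 98.7% of 20316 genes (larger table) and 100.0% of 18284 (smaller table). The genotype side of a library was set by the deposited sign of genes with 1 read in it alone, and genes with several solutions were settled by their deposited sign. Among other genes, those with 1 solution, a mean of at least 100 and a score beyond 1, all 1412 and all 1642 had the deposited sign. Libraries of a genotype differed beyond sampling noise (chi-square over genes). No count model was fitted, since reads of genes above that mean were not recovered and the authors' Wald test fits the files. Depth is known as relative depth only. The difference between tables was tested with a z test, Benjamini-Hochberg over 11604 genes. Intervals are 1.96 standard errors to each side.

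The CPEB genes, lists and tests were chosen with earlier results of these data known. Named genes were the members, genes overlapping them, a fixed selection from the lists, list genes past an adjusted p of 0.05 in either table, and the 3 genes nearest to each member. Btg3, Cirbp and Rbm3 were named after their values were seen. Eif4enif1 of that selection was not analysed here, and 2 other genes of it are not reported here. Alternatives were other sets of genes for the adjustment, unmoderated ratios, leaving out each library, and other gene lengths. Python 3.11.15 with pandas 2.3.3, numpy 2.4.6, scipy 1.17.1 and numba 0.67.0 was used, and the recovery was tested on simulated data.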

Additional observations from a re-analysis of the deposited data

How the results depend on the processing

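The calls of the 4 CPEB genes kept their side of the threshold in both tables with p adjusted over every gene or over genes with a mean of at least 100. Among the CPEB genes, leaving out overlapping genes could be run for Cpeb4 alone. The differences between tables also kept their side under both of their alternatives. Tob1 in the smaller table had an adjusted p of 0.0750 over every gene (DESeq2 Wald test). It was 0.0365 over genes with a mean of at least 100 and 0.0342 over genes overlapping no other gene (same test). The deposited log2 fold change differed from the unmoderated ratio by more than the spread between libraries for Cpeb4, -1.16 and -1.10 in the larger and smaller table, and for Cpeb2, 0.65, and Cpeb3, 0.34, in the smaller. Leaving out each library gave unmoderated log2 ratios in the larger table of -0.15 to 0.13 for Cpeb1, 0.49 to 0.80 for Cpeb2, 0.094 to 0.34 for Cpeb3 and -1.65 to -1.45 for Cpeb4. In the smaller table they were -0.06 to 0.09, 0.74 to 1.21, 0.50 to 0.70 and -1.77 to -1.55. Levels depend on the length used, compared here for means over knockout and wild-type libraries together. Their order can differ from the orders within a genotype given above. Per kilobase of annotated exon these means were 170, 181, 55.2 and 167 for Cpeb1 to Cpeb4 in the larger table. In the smaller table they were 220, 100, 29.7 and 68.4. Per kilobase of the longest coding transcript they moved for Cpeb1 (229 and 297 in the larger and smaller table) and Cpeb3 (69.4 and 37.3). The order in the larger table changed with this length too, with Cpeb1 above Cpeb2 at 200 and Cpeb4 at 169. Per kilobase of the longest coding sequence they were 423, 461, 191 and 486 for Cpeb1 to Cpeb4 in the larger table. That order differs from the order of these means per exon length. In the smaller table they were 548, 256, 103 and 199, in the same order as these means per exon length. Leaving out libraries, added after the data were seen, moved the Cpeb2 difference as a share of the Cpeb4 difference to between 36.0% and 61.6% in the larger table, and between 60.98% and 129% in the smaller one. No paired analysis was possible because the deposited tables carry no replicate numbers.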
